A study of Mus musculus with 36 samples.

Results

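The 7 genes described here, Pdgfra, Cd34, Dpt, Dpp4, Pi16, Scara5 and Abca8a, are surface and matrix genes known from fibroblasts of the capsular or adventitial type. Each was read from the probe set that the platform annotation assigns to that symbol alone, taking the one with the highest mean over all arrays where a gene had several. They are 7 of 18193 genes with such a probe set, and all 7 were among the 14495 genes bright enough to be tested. A gene was tested when it exceeded the pooled median of all values, 5.66 on the log2 scale, in at least 2 arrays.

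The series profiled the stroma of the mouse thymus on 36 Affymetrix mouse 430 2.0 arrays, at 3 ages that cover the onset of thymic involution. The groups were cortical thymic epithelial cells (cTEC), medullary epithelial cells sorted as low for both CD80 and MHC-II (mTEClo) or high for both (mTEChi), dendritic cells (DC) without or with Sirpa on their surface (Sirpa- DC, Sirpa+ DC), and fibroblasts. All came from male wild-type C57BL/6J mice of 1, 3 or 6 months, with 2 arrays for each population and age, and no group carried a transgene or a treatment. Thymi were digested with enzymes and the populations sorted by flow cytometry, and the labels give no gate for the fibroblasts. Sample labels speak of 1 mouse each, but the design text gives 2 mice for each age, so arrays of an age may share mice. If they do, p-values measure only the spread between these samples.

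Fibroblasts of the thymic capsule and of the medulla differ in the surface proteins they carry. In mouse, capsular fibroblasts bear DPP4 together with PDGFRα, while medullary fibroblasts largely lack DPP4, and CD34, PI16 and dermatopontin mark fibroblasts of capsules and vessel sheaths in many organs. Thymic fibroblasts make matrix and growth factors that support epithelial cells and developing T cells, and the thymus shrinks with age.

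By role, PDGFRα is the receptor tyrosine kinase for platelet-derived growth factors and CD34 is a sialomucin of progenitors, endothelium and stromal cells. Dermatopontin (Dpt) is a matrix protein that binds decorin and collagen fibrils, and PI16 belongs to the CAP family of secreted proteins. DPP4 (CD26) is a surface serine protease that trims chemokines such as CXCL12 and is also carried by T cells and thymocytes. SCARA5 is a scavenger receptor that binds ferritin, and ABCA8a is a transporter of the ABC A subfamily.

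In the RefSeq annotation of GRCm38.p6 the genes lie at chr5:75151322-75198206 (Pdgfra), chr1:194938821-194961292 (Cd34), chr1:164796663-164824274 (Dpt), chr2:62330073-62412315 (Dpp4), chr17:29318796-29328903 (Pi16), chr14:65666403-65764826 (Scara5) and chr11:110025634-110097580 (Abca8a). Promoter sequences from RefSeq were matched for 6 of the 7 genes, all but Scara5. The stretches before the annotated gene start are shown for Cd34 and Dpt, which were among the genes that fell with age in fibroblasts, and for Dpp4, the gene that rose. The first is chr1:194938571-194938820 on the plus strand, the second chr1:164796413-164796662 on the plus strand, and the third chr2:62412316-62412481 on the minus strand, each printed 5′ to 3′. Capitals mark matches, on either strand, to TATAAA or to the E-box CANNTG.
Cd34: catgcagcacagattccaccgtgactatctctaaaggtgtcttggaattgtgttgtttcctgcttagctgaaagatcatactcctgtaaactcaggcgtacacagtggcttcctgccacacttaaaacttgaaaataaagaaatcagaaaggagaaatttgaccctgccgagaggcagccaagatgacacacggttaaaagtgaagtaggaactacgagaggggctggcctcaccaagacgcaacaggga
Dpt: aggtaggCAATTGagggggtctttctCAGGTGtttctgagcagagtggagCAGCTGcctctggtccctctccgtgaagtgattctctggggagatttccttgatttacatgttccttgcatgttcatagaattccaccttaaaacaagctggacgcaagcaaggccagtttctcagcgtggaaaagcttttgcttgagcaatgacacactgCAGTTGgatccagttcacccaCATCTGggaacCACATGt
Dpp4: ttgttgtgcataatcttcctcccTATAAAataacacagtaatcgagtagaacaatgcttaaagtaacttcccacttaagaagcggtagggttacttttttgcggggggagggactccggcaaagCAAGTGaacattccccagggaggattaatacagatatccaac
The letters searched on both strands were TATAAA, known as the TATA box, then CANNTG, the E-box, then GGGCGG, the GC box, and lastly CCAAT, the CCAAT box. The 250 bases before Dpt held 6 E-boxes and no other match, and the 250 bases before Cd34 held no match to any of the 4. The 166 bases before Dpp4 held 1 TATAAA and 1 E-box. Of 27025 mouse promoters, 66.0% held an E-box in the 250 bases before their start. In the first 166 of those 250 bases, the part farthest from the start, 52.7% did. The Dpp4 stretch was that same part of its promoter entry, because the annotated gene starts 84 bases further upstream than the entry. TATAAA was found in 13.0% of the longer and 8.2% of the shorter stretches. The GC box was found in 32.9% and 18.7%, and CCAAT in 34.5% and 22.6%. In Pi16 the 164 bases searched held no match to the 4, and the E-box share in the first 164 of the 250 bases was 52.2%. The sequences for Pdgfra and Abca8a were not searched, because the annotated gene starts further upstream than the promoter entry. A match is a description of these letters and not of binding.

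Array medians lay between 5.61 and 5.75, and each of the 36 arrays correlated best with an array of its own population. The sorted fibroblasts carried the 3 label checks, with Col1a1, a fibrillar collagen, at 10.54 and 10.79 at 1 month, Pdgfrb, the second PDGF receptor, at 11.29 to 13.38, and Epcam, an epithelial adhesion gene, at 6.28 to 8.33 against a median of 10.95 in the other arrays. The second 6-month fibroblast array stood apart, with a mean of 16 general fibroblast genes (collagens, decorin, lumican and others) of 7.44, against 9.61 to 11.53 in the other 5. Its Col1a1 signal was 5.84, against 8.54 in the first 6-month array. The fibroblast contrasts and age changes of the 7 genes are therefore given with and without it, and single levels, the likeness between genes and the shares of non-overlapping arrays are given with it. All 13 measured thymocyte markers (such as Rag1 and Cd3g) exceeded the pooled median in every fibroblast array. So did 12 or 13 in each Sirpa+ DC array, 11 to 13 in cTEC and 7 to 13 in Sirpa- DC. In mTEChi arrays 7 to 11 did, and in mTEClo arrays 4 to 11. The mean of the 13 was 8.79 to 11.08 log2 units per fibroblast array, and at most 8.59 in any other array. Fibroblast arrays also carried all 10 mural cell markers above the pooled median, where each epithelial array carried 8 or 9 and each DC array 5 to 7. The mean of these markers was 8.56 to 10.68 in fibroblast arrays and at most 8.52 in any other array, an mTEClo array. Of 11 tested medullary or perivascular-type fibroblast genes, 6 were called higher than in the other populations, where 8.38% of all tested genes were. These arrays therefore do not separate capsular from medullary fibroblasts or from mural cells, and in a bulk sample fewer cells of a type and less RNA per cell cannot be told apart.

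Over all ages, 7 of 7 genes were higher in fibroblasts than in the mean of the other 5 populations, where 8.38% of all tested genes were called higher. The 7 were chosen as fibroblast genes with earlier results of these data known, so this count is a description. A call required an adjusted p under 0.05 in limma, a linear model across all arrays with moderated variance and Benjamini-Hochberg adjustment, and for populations at least a 2-fold difference. Abca8a, Dpt, Pdgfra and Cd34 differed most, by 66.4-fold, 58.1-fold, 37.1-fold and 28.1-fold. Scara5 differed by 16.6-fold, and Pi16 and Dpp4 by 3.42-fold and 2.48-fold. In 5 genes, Pdgfra, Cd34, Dpt, Scara5 and Abca8a, all 6 fibroblast arrays lay above all 30 others, as in 1.68% of tested genes.

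**Figure D1:**
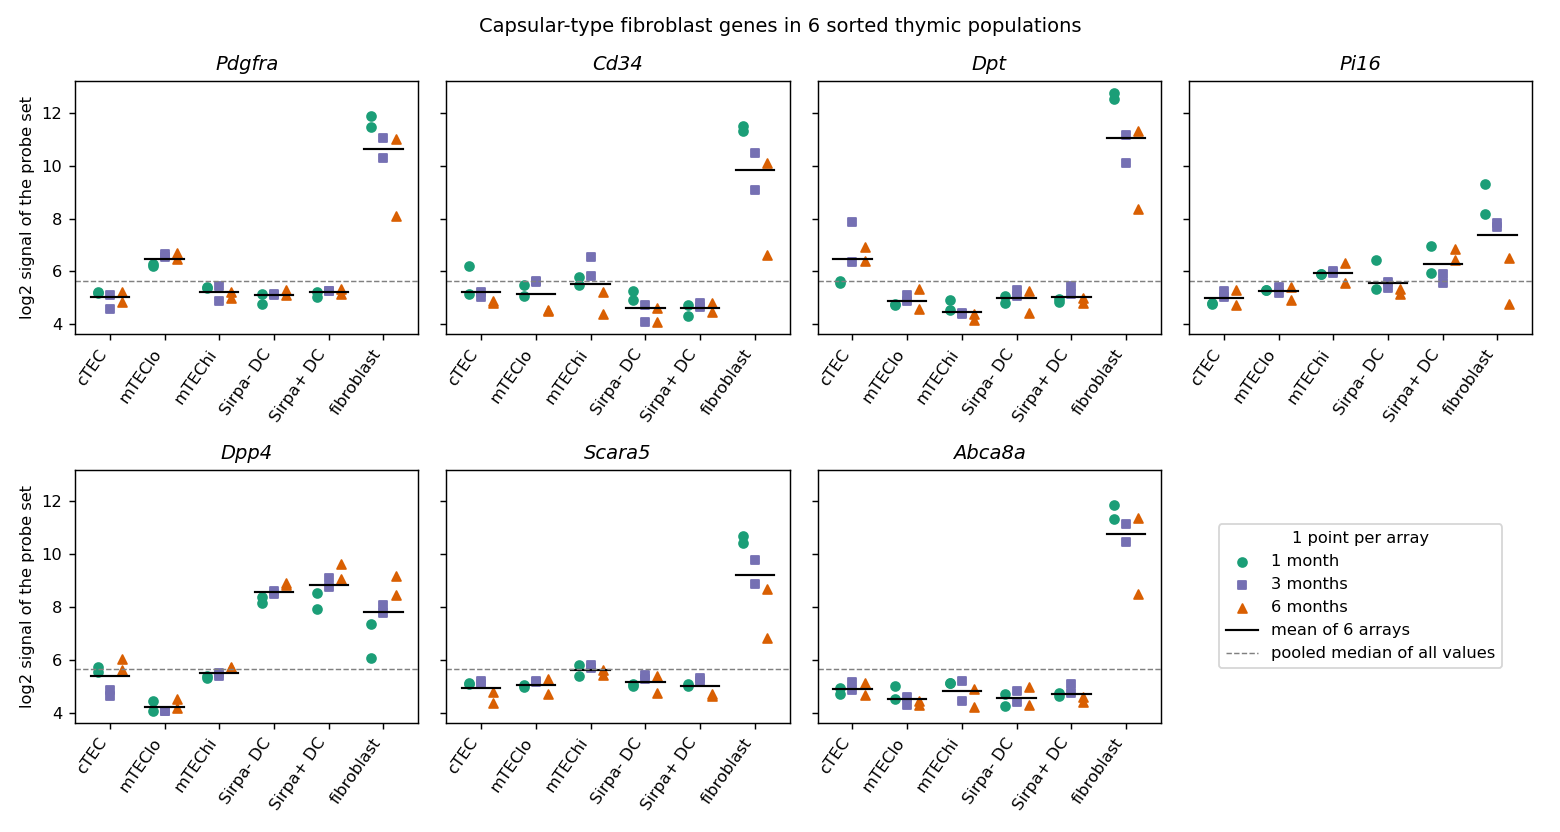
Log2 signal (vertical axis) of the 7 genes in each of the 36 arrays, by population (horizontal axis), with points coloured by age, a black line at the mean of 6 arrays and a dashed line at the pooled median of 5.66. Fibroblast points lie above every other point for Pdgfra, Cd34, Dpt, Scara5 and Abca8a, while DC points are highest for Dpp4.

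Pdgfra (probe set 1421917_at) read 11.87 and 11.46 in the fibroblast arrays of 1 month, 11.04 and 10.27 at 3 months, and 10.99 and 8.10 at 6 months. In the other 30 arrays it ranged from 4.59 through a median of 5.23 to 6.70. The lowest fibroblast array was thus above the highest of the others, and that highest array was an mTEClo array of 6 months. The difference from the mean of the other populations was 5.21 ± 0.21 log2 units (SE, limma adjusted p = 1.62e-16). The mTEClo mean of 6.48 ± 0.19 (SD, n = 6) stood above the pooled median in 6 of 6 arrays. It exceeded the mTEChi mean of 5.23 ± 0.23 (SD, n = 6) by 1.25 ± 0.27 (SE, limma adjusted p = 0.000377), where 7.81% of genes were called higher in mTEClo than in mTEChi. The remaining neighbours in the order (mTEChi, Sirpa+ DC, Sirpa- DC, cTEC) did not differ beyond their spread.

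Cd34 (1416072_at) read 11.49 and 11.30 at 1 month, 10.47 and 9.09 at 3 months, and 10.10 and 6.61 at 6 months in fibroblasts. In the other arrays it ranged from 4.09 through a median of 4.90 to 6.54. The groups did not overlap, but the second 6-month fibroblast array came within 0.1 log2 units of the highest mTEChi array. The difference was 4.81 ± 0.28 (SE, limma adjusted p = 1.08e-13). After fibroblasts the order was mTEChi at 5.54 ± 0.72, cTEC at 5.22 ± 0.52, mTEClo at 5.14 ± 0.52, Sirpa+ DC at 4.63 ± 0.20 and Sirpa- DC at 4.62 ± 0.47 (SD, n = 6 each), and no neighbours among these were called different.

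Dpt (1418511_at), the matrix gene, gave 12.76 and 12.53 at 1 month, 11.16 and 10.09 at 3 months, and 11.32 and 8.34 at 6 months. The other arrays ranged from 4.18 through a median of 4.97 to 7.86, and the highest was a cTEC array of 3 months. Fibroblasts stood 5.86 ± 0.25 above the mean of the others (SE, limma adjusted p = 3.68e-16). The cTEC arrays read 5.64 and 5.56 at 1 month, 7.86 and 6.35 at 3 months, and 6.92 and 6.41 at 6 months. Their mean of 6.46 ± 0.86 (SD, n = 6) was 1.42 ± 0.32 above that of Sirpa+ DC (SE, limma adjusted p = 0.000422), where 15.8% of genes were called higher in cTEC. Sirpa+ DC, Sirpa- DC, mTEClo and mTEChi, in that order, were not called different from their neighbours.

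Scara5 (1451204_at), the ferritin receptor, read 10.69 and 10.44, then 9.79 and 8.86, then 8.69 and 6.84 in fibroblasts of 1, 3 and 6 months. The other arrays reached at most 5.80, from a lowest value of 4.38 and a median of 5.15. All fibroblast arrays were clear of the others by more than 1 log2 unit, and the difference was 4.05 ± 0.16 (SE, limma adjusted p = 9.96e-17). Abca8a (1427371_at), the transporter, read 11.85 and 11.34, 11.15 and 10.46, and 11.36 and 8.49 at the same ages. Elsewhere it ranged from 4.23 through 4.72 to 5.20 and was above the pooled median in 0 of 30 arrays. It had the largest difference of the 7 genes, 6.05 ± 0.23 (SE, limma adjusted p = 3.29e-17). Abca8a passed the filter on low values through its fibroblast arrays alone, so for this gene the contrast is a description. For both genes no neighbours below fibroblasts were called different.

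Pi16 (1453839_a_at) was measured at 8.17 and 9.29 in fibroblasts of 1 month, 7.67 and 7.82 at 3 months, and 6.53 and 4.79 at 6 months. In the other arrays it ranged from 4.74 through a median of 5.41 to 6.95, the highest a Sirpa+ DC array of 1 month. The 4 fibroblast arrays of 1 and 3 months lay above all others, and the 6-month arrays lay among them, one below the pooled median. The difference over all ages was 1.78 ± 0.19 (SE, limma adjusted p = 1.17e-08). The next population was Sirpa+ DC at 6.27 ± 0.56 (SD, n = 6), 1.11 ± 0.25 below fibroblasts (SE, limma adjusted p = 0.000408). Leaving out 1 array brought that gap under 2-fold in 3 cases, to 0.93 without the second 1-month and 0.82 without the first 6-month fibroblast array, and to 0.94 without the first 1-month Sirpa+ DC array. Lower neighbours (mTEChi, Sirpa- DC, mTEClo, cTEC) were not called different from one another.

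Dpp4 (1416697_at) had a different layout, high in DC as well as in fibroblasts. Fibroblast arrays read 6.07 and 7.36 at 1 month, 7.79 and 8.09 at 3 months, and 8.45 and 9.17 at 6 months. DC were at or above that level, with Sirpa+ DC at 8.84 ± 0.57 and Sirpa- DC at 8.57 ± 0.29, while mTEChi stood at 5.51 ± 0.18, cTEC at 5.42 ± 0.54 and mTEClo at 4.23 ± 0.20 (SD, n = 6 each). None of the 6 fibroblast arrays lay above all others, since the highest DC array reached 9.61. The difference of fibroblasts from the mean of the other populations, 1.31 ± 0.13 (SE, limma adjusted p = 5.05e-09), averaged higher epithelial and lower DC contrasts. Against Sirpa+ DC fibroblasts were lower by 1.01 log2 units (SE 0.17, limma adjusted p = 1.83e-05), where 9.21% of genes were called lower. That call sat at the 2-fold threshold and was lost without any 1 of 6 arrays, 3 of fibroblasts and 3 of Sirpa+ DC, with the difference then between -0.96 and -0.80. Against Sirpa- DC they were lower by 0.75 log2 units (SE 0.17, limma adjusted p = 0.000634), under 2-fold. The 2 DC populations were not called different, and cTEC exceeded mTEClo by 1.18 (SE 0.17, limma adjusted p = 7.09e-06), where 3.67% of genes were called higher in cTEC.

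Population by population, 7 of 7 genes were called higher in fibroblasts than in cTEC (9.05% of all genes), than in mTEClo (8.96%) and than in mTEChi (12%). Against Sirpa- DC and Sirpa+ DC it was 6 of 7 (12.9% and 11.6% of all genes), with Dpp4 the exception. At 1 month 6 genes were called higher than the mean of the other populations (9.43% of genes), at 3 months 7 (10%) and at 6 months 6 (9.65%). The exceptions were Dpp4 at 1 month, 0.36 ± 0.23 higher (SE, limma adjusted p = 0.213), and Pi16 at 6 months, 0.056 ± 0.33 higher (SE, limma adjusted p = 0.897). The fold over the other populations at 1, 3 and 6 months was 202, 37.3 and 26.0 for Dpt, 77.5, 38.2 and 17.3 for Pdgfra, and 71.1, 23.7 and 13.2 for Cd34. It was 41.9, 15.8 and 6.87 for Scara5, and 112, 65.4 and 39.8 for Abca8a. With all arrays the gap of these 5 genes to the rest of the stroma was smallest at 6 months. Without the second 6-month fibroblast array the 6-month fold was 73.1 for Dpt, 47.1 for Pdgfra, 44.4 for Cd34, 13.0 for Scara5 and 107 for Abca8a, so that the gap was smallest at 3 months for all of these but Scara5. Dpp4 at 1 month depended on single arrays, at 1.00 (called) without the first and -0.28 without the second fibroblast array. Pi16 at 6 months was -0.81 without the first 6-month fibroblast array, -0.019 without the first 6-month mTEChi array, and 0.93 without the second 6-month fibroblast array. Without that last array 7 of 7 genes were called over all ages, at 92.4-fold for Abca8a, 82.0-fold for Dpt, 51.8-fold for Pdgfra, 42.1-fold for Cd34, 20.5-fold for Scara5, 4.18-fold for Pi16 and 2.28-fold for Dpp4.

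Between 1 and 6 months, 6 of 7 genes fell in fibroblasts (20.4% of all tested genes fell) and Dpp4 rose (15.8% of genes rose). For ages a call required only the adjusted p. Pi16 fell by 3.07 ± 0.43 log2 units, an 8.42-fold change (SE, limma adjusted p = 1.22e-05). Cd34 fell by 3.04 ± 0.62 (limma adjusted p = 0.000558), Dpt by 2.81 ± 0.56 (0.000433) and Scara5 by 2.80 ± 0.36 (4.97e-06). Pdgfra fell by 2.12 ± 0.47 (limma adjusted p = 0.00129) and Abca8a by 1.67 ± 0.51 (0.0121). Dpp4 rose by 2.09 ± 0.30, a 4.27-fold change (SE, limma adjusted p = 1.66e-05). Both 6-month arrays lay below both 1-month arrays for Pdgfra, Cd34, Dpt, Pi16 and Scara5, as in 37.6% of tested genes, but not for Abca8a, whose first 6-month array of 11.36 overlapped the 1-month pair. Both 6-month arrays lay above both 1-month arrays for Dpp4, as in 29.2% of genes. Both 3-month arrays lay below both 1-month arrays for all but Dpp4, as in 30.3% of genes.

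**Figure D2:**
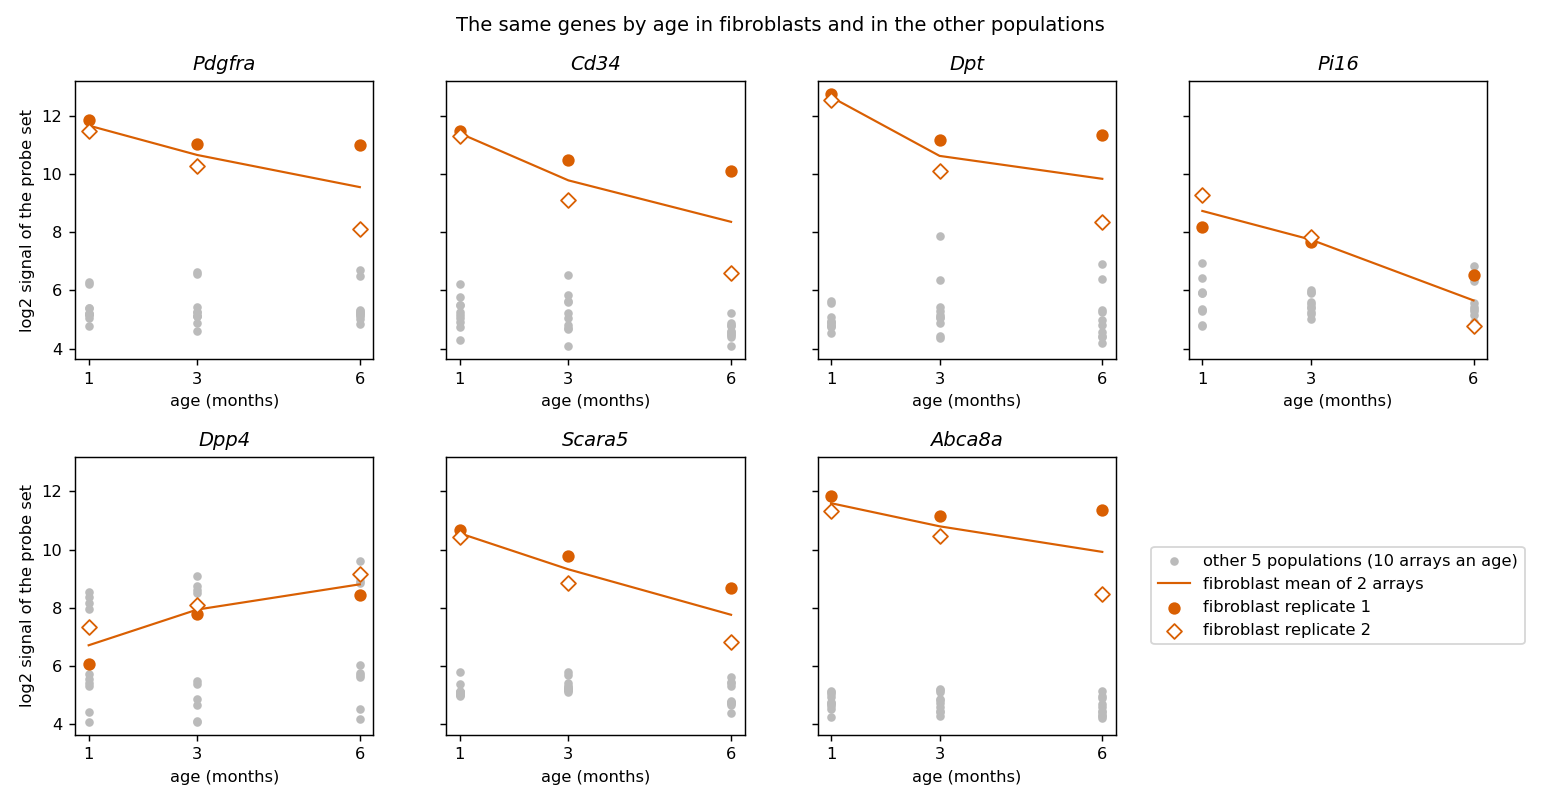
Log2 signal (vertical axis) of the 7 genes against age in months (horizontal axis). Filled and open points are the first and second fibroblast array of an age, the line joins their means, and grey points are the 10 arrays of the other populations at that age. Filled and open points part most at 6 months for all but Dpp4, whose points part most at 1 month, and Dpp4 alone has its fibroblast mean rising over the ages.

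The second 6-month array was the lowest fibroblast array for each of the 6 falling genes and the highest for Dpp4, and parts of the age result turned on it. Leaving it out left 1 fibroblast array at 6 months, and 8.96% of all tested genes then fell from 1 to 6 months and 5.85% rose. Without it, 4 genes remained called from 1 to 6 months. Dpt fell by 1.32 (SE 0.44, limma adjusted p = 0.0448), Pi16 by 2.20 (SE 0.43, 0.00145) and Scara5 by 1.87 (SE 0.30, 0.000250), and Dpp4 rose by 1.73 (SE 0.35, 0.00197). Pdgfra at -0.67 (SE 0.29, limma adjusted p = 0.117), Cd34 at -1.29 (SE 0.45, 0.0524) and Abca8a at -0.24 (SE 0.37, 0.710) no longer passed. Abca8a also did not pass without the first 1-month array, at -1.42 (limma adjusted p = 0.128).

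From 1 to 3 months, where that array has no part in the difference itself, Dpt fell by 2.02 ± 0.56 (SE, limma adjusted p = 0.0113) and Scara5 by 1.24 ± 0.36 (0.0161), where 10.4% of genes fell. Dpp4 rose by 1.23 ± 0.30 (SE, limma adjusted p = 0.00486), where 10.1% of genes rose. Not called were Cd34 at -1.62 (limma adjusted p = 0.0671), Pi16 at -0.98 (0.108), Pdgfra at -1.01 (0.141) and Abca8a at -0.79 (0.302). With the second 6-month array left out, which also lowers the spread that the fit shares across groups, 6 genes passed. In that fit 11.9% of all tested genes fell and 10.3% rose from 1 to 3 months. The limma adjusted p was then 0.00254 for Pdgfra, 0.00213 for Cd34 and 0.0437 for Pi16. Without the first 1-month array 0 genes passed in limma (3 at an unadjusted p under 0.05), with Dpt at -1.91, Scara5 at -1.11 and Dpp4 at 0.58. Without the second 3-month array 0 passed in limma (2 at an unadjusted p under 0.05), with these genes at -1.49, -0.77 and 1.07. Calls also changed without the first 3-month array, with Cd34 at -2.30, and without the first 6-month array.

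From 3 to 6 months Pi16 fell by 2.09 ± 0.43 (SE, limma adjusted p = 0.00171) and Scara5 by 1.56 ± 0.36 (0.00426), where 9.24% of genes fell, and Dpp4 rose by 0.87 ± 0.30 (0.0489), where 6.91% rose. Cd34 at -1.43, Pdgfra at -1.10, Abca8a at -0.88 and Dpt at -0.79 were not called, with limma adjusted p of 0.119, 0.115, 0.250 and 0.362. Without the second 6-month array 0 genes passed in limma (2 at an unadjusted p under 0.05), and Pdgfra, Cd34, Dpt and Abca8a turned positive, at 0.34, 0.32, 0.70 and 0.55. Pi16 was then at -1.22, Scara5 at -0.64 and Dpp4 at 0.51. More of the 7 genes passed without the first 6-month array. Fewer of them, and fewer of all tested genes, passed without the first 3-month array, where Scara5 was at -1.10. Calls in both the earlier and the later step therefore depended on single arrays.

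**Figure D3:**
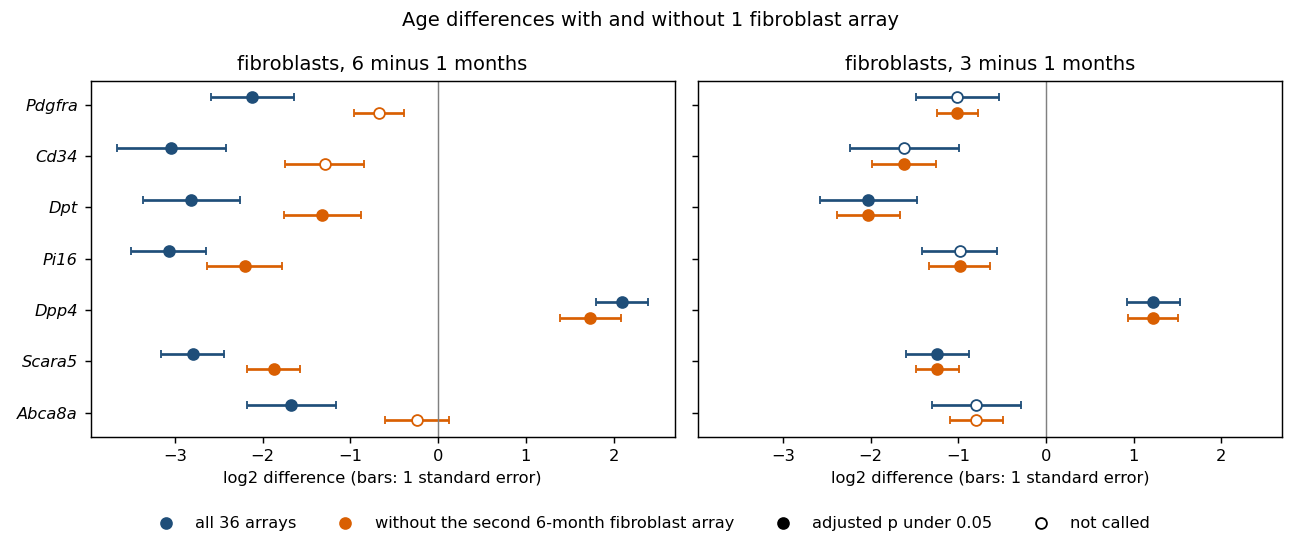
Log2 difference (axis, with bars of 1 SE) of the 7 genes in fibroblasts, 6 minus 1 and 3 minus 1 months, from the fit of all 36 arrays and from the fit without the second 6-month fibroblast array. Filled points passed an adjusted p of 0.05: 7 and 4 genes for 6 minus 1 months, 3 and 6 for 3 minus 1 months.

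Whether fibroblasts changed more than the other populations was tested as the age change of fibroblasts minus the mean age change of the other 5. From 1 to 6 months this difference was called for 7 of 7 genes, where 26.4% of all genes were called. It was -3.00 for Pi16, -2.96 for Dpt, -2.61 for Scara5, -2.43 for Cd34, -2.17 for Pdgfra and 1.62 for Dpp4, with limma adjusted p from 7.12e-05 (Scara5) to 0.00988 (Cd34). For Abca8a it was -1.49 (limma adjusted p = 0.0486), a call lost in 30 of 36 fits that each left out 1 array. Without the second 6-month fibroblast array 3 genes passed (Dpp4 at 1.26, Pi16 at -2.13, Scara5 at -1.68). Pdgfra was then at -0.72, Cd34 at -0.68, Dpt at -1.46 and Abca8a at -0.063, with limma adjusted p of 0.154, 0.433, 0.0541 and 0.948. Cd34 also did not pass without the first 1-month array, at -2.33 (limma adjusted p = 0.0769).

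From 1 to 3 months Dpt (-2.43), Scara5 (-1.41) and Dpp4 (1.22) differed from the other populations' change, where 17.7% of genes were called. Those 3 calls were lost without the first 1-month array (Dpt -2.32, Scara5 -1.28, Dpp4 0.58) and without the second 3-month array (Dpt -1.90, Scara5 -0.94, Dpp4 1.07), with 0 genes passing in limma and 3 at an unadjusted p under 0.05 each time. More of the 7 genes passed without the first and without the second 6-month array. From 3 to 6 months only Pi16 differed, by -2.15 (limma adjusted p = 0.0104), where 4.53% of genes were called. Pi16 was at -2.23 without the first and -2.08 without the second 3-month array and at -1.29 without the second 6-month array, and passed in none of these. Without the first 6-month array more of the 7 genes passed, and so did more of all tested genes. A moderated F-test in limma of any population-by-age difference called 4 genes, Pi16 (adjusted p = 0.00869), Scara5 (0.0141), Dpp4 (0.0154) and Dpt (0.0471), where 15.7% of genes were called. Its count of these genes changed without the first 1-month array, and without the first or the second 6-month array.

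In the other populations 1 of 105 tests of a member over 15 age comparisons was called in limma, and 8 had an unadjusted p under 0.05. The call was Dpp4 in cTEC from 3 to 6 months, 1.08 ± 0.30 higher (SE, limma adjusted p = 0.0425). Dpp4 in Sirpa+ DC stood 1.09 higher at 6 than at 1 month (limma adjusted p = 0.0578), and Dpt in cTEC 1.5 higher at 3 than at 1 month (0.121), neither called. The share of all genes called for 3 minus 1, 6 minus 1 and 6 minus 3 months was 5.40%, 6.45% and 3.84% in cTEC, and 1.77%, 6.42% and 2.39% in mTEClo. In mTEChi it was 0%, 9.51% and 7.87%, the first with 385 genes at an unadjusted p under 0.05. In Sirpa- DC it was 0.0345%, 0.904% and 0.290%, and in Sirpa+ DC 0.331%, 2.06% and 1.23%.

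Pdgfra, Dpp4, Scara5 and Pi16 had further probe sets of their own, fitted together with all 25600 single-symbol probe sets that passed the filter. Both other Pdgfra probe sets fell from 1 to 6 months, 1438946_at by 1.85 (limma adjusted p = 0.00364) and 1421916_at by 1.14 (0.00963). Of 3 other Dpp4 probe sets, 1459973_x_at rose by 1.92 (limma adjusted p = 0.000164), while 1438279_at at 0.57 (0.134) and 1441342_at at 0.27 (0.345) were not called. From 1 to 3 months 1459973_x_at and 1441342_at rose, by 1.49 (limma adjusted p = 0.00398) and 0.67 (0.0348). The second Scara5 probe set, 1431336_at, did not separate fibroblasts from the rest (-0.03) and fell by 0.65 (limma adjusted p = 0.0418). Neither other Pdgfra probe set passed without the second 6-month array (-0.39 and -0.22), as the chosen one did not, while 1459973_x_at rose by 1.56 (limma adjusted p = 0.0113) and 1431336_at fell by 0.87 (0.0475). The second Pi16 probe set, 1422026_at, read 5.05 to 5.71 in fibroblasts and was too dim to be tested. The Dpp4 rise was thus called in 2 of its 4 probe sets with or without that array, and the Pdgfra decrease in all 3 with it and in 0 without it (limma; 1 at an unadjusted p under 0.05).

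Over the 18 group means (a description across groups that share arrays and populations), the gene most like Pdgfra was Npy1r (r = 0.97), most like Cd34 was Kdelr3 (0.97), most like Dpt was Mxra7 (0.97) and most like Scara5 was Tfpi2 (0.99). Next for Dpt were Adamts5 and Lum, a collagen-binding proteoglycan (0.97 each), for Cd34 Scara5 itself and Lama2 (0.97 each), for Pdgfra Vstm4 (0.97) and Kcne4 (0.96), and for Scara5 Rerg (0.99) and Tbx2 (0.98). Abca8a was matched by Aoc3 (0.99), Meox2 (0.99) and Vtn (0.99), and Pi16 by Phldb1 (0.93), Tfpi (0.91) and Mmp23 (0.90). For Dpp4 the closest were Lpxn (0.99), Dock2 (0.98) and Arhgap30 (0.98), which are genes of leukocytes.

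Beside the 7 genes stood a list of 24 further genes of capsular or adventitial fibroblasts, of which 21 were tested. Beside the counts of genes higher in fibroblasts, in this list and those that follow, stand the 8.38% of all tested genes called higher. Over all ages 7 of the 21 were called higher in fibroblasts than in the other populations, led by Efemp1 (4.15), Tnfaip6 (2.49) and the stromal sialomucin Cd248 (2.05). Called lower were Anxa3 (-2.05) and Smpd3 (-1.27). Here and in the lists that follow, lower genes are named only, as no share of all genes called lower stands beside them. The median of the 21 was 0.46, against -0.04 for all tested genes and 4.81 for the 7 genes. From 1 to 6 months 16 of the 21 fell and 0 rose in limma, with a median of -2.06 against -0.07 for all genes. Col14a1, a fibril-associated collagen, fell by 4.25, the microfibril gene Mfap5 by 3.91, and fibronectin (Fn1) stood at -3.50 (limma adjusted p of at most 1.48e-05 for the 3). Mfap5 read 9.38 and 9.16 at 1 month, 6.45 and 6.48 at 3 months, and 5.89 and 4.84 at 6 months, so most of its decrease was present by 3 months. Without the second 6-month array 11 of the 21 fell, and from 1 to 3 months 9 did. The list was drawn up with earlier results of these data known, so its count is a description.

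Other stromal lists fell as well. Of 11 medullary or perivascular-type genes 8 fell from 1 to 6 months (median -1.79, Col15a1 by 3.73), and of 16 general fibroblast genes 16 fell (median -2.94, the gelatinase Mmp2 by 3.79). These counts were, without the second 6-month array, 2 and 10, and without the first 1-month array 3 of the medullary genes fell. In the second 6-month array the mural markers averaged 8.56 and the general fibroblast genes 7.44, against 9.52 and 9.79 in the first. Of the 10 mural genes 9 fell from 1 to 6 months (median -1.28, Tagln by 2.30), and 6 did without that array. Beside these list counts, and those of the lists that follow, stand the 20.4% of all genes that fell and 15.8% that rose from 1 to 6 months, or 8.96% and 5.85% without the second 6-month array.

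PDGF ligands and their receptors were 6 genes. Pdgfrb and the receptor-like Pdgfrl were higher in fibroblasts (6.56 and 3.12) and the ligands Pdgfa, Pdgfb, Pdgfc and Pdgfd were lower (-1.22, -1.23, -1.84 and -1.32). From 1 to 6 months 4 of 6 fell, among them Pdgfrl by 1.83, Pdgfrb by 1.51 and Pdgfa by 1.16, and 1 of 6 did without the second 6-month or without the first 1-month array. Relatives of the members (ABCA, scavenger receptor, DPP and CAP families and CD34 kin) were 18 tested genes. Of these 7 were higher in fibroblasts, led by the scavenger receptor Colec12 (3.71), the DPP4-like protease Fap (3.49) and Crispld2 (3.18). Glipr2 (-1.08) was called lower. With age 11 of 18 fell, Fap by 3.19, Scara3 by 2.73 and Abca9 by 2.70, and 6 without the second 6-month array. Fap read 11.67 and 11.23 at 1 month and 9.74 and 6.78 at 6 months, so it fell where its relative Dpp4 rose.

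Markers of other cells moved with age in the same arrays. The mean of the 13 thymocyte markers was 8.79 and 10.37 at 1 month, 10.34 and 10.37 at 3 months, and 10.75 and 11.08 at 6 months, and 8 of 13 rose from 1 to 6 months (median 1.37, Ptcra by 2.19, Cd8b1 by 1.74, Rag2 by 1.69). With the second 6-month array left out 4 rose, and without the first 1-month array 2. With that mean as a covariate in the fit, 6 genes passed from 1 to 6 months, Dpp4 at 1.41 (limma adjusted p = 0.00325) and Pi16 at -3.31 (0.000346) among them, and Abca8a did not (-1.15, 0.226). The difference of the age change from that of the other populations then passed for Pi16 and Scara5 only, with Dpp4 at 0.65 (limma adjusted p = 0.369). Beyond this fit, the part of these markers in the results was not tested.

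The 3′ minus 5′ signal of the Gapdh and Actb control probe sets, a measure of RNA integrity, was 3.15 and 2.37 at 1 month, 2.28 and 1.94 at 3 months, and 1.86 and 1.72 at 6 months in fibroblasts. It was thus highest in the first 1-month array. In each of the other 5 populations it was also lower in both 6-month arrays than in both 1-month arrays. In cTEC it was 2.63 and 2.43 at 1 month and 1.96 and 2.04 at 6 months. With it as a covariate 6 genes passed from 1 to 6 months (Abca8a at -1.21, limma adjusted p = 0.200) and 0 passed from 1 to 3 months in limma (3 at an unadjusted p under 0.05). Endothelial markers averaged 6.12 and 5.96 at 1 month and 5.73 and 5.28 at 6 months, and 4 or 5 of 12 were above the pooled median in any fibroblast array. Members of that list differed. Esam, an endothelial adhesion gene, and Plvap, a gene of fenestrated endothelium, were higher in fibroblasts than elsewhere (1.43 and 1.53), while Kdr and Vwf were lower (-1.37 and -1.31). From 1 to 6 months 3 of 9 tested fell, Plvap by 2.18 (limma adjusted p = 0.00104), Esam by 1.70 (limma adjusted p = 1.61e-06) and Tek by 1.13, and only Esam did without the second 6-month array, by 1.67. Cdh5, the endothelial cadherin, lay below the pooled median in all 6 arrays. The part of endothelial markers in the Cd34 result was not tested. Mesothelial markers averaged 4.28 to 4.79 with at most 1 of 8 above the pooled median. Of 7 tested haematopoietic progenitor markers, for which CD34 is also known, 1 was higher in fibroblasts than elsewhere (Hlf, 1.07). Kit (-2.21) and Flt3 (-2.02) were called lower.

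**Figure D4:**
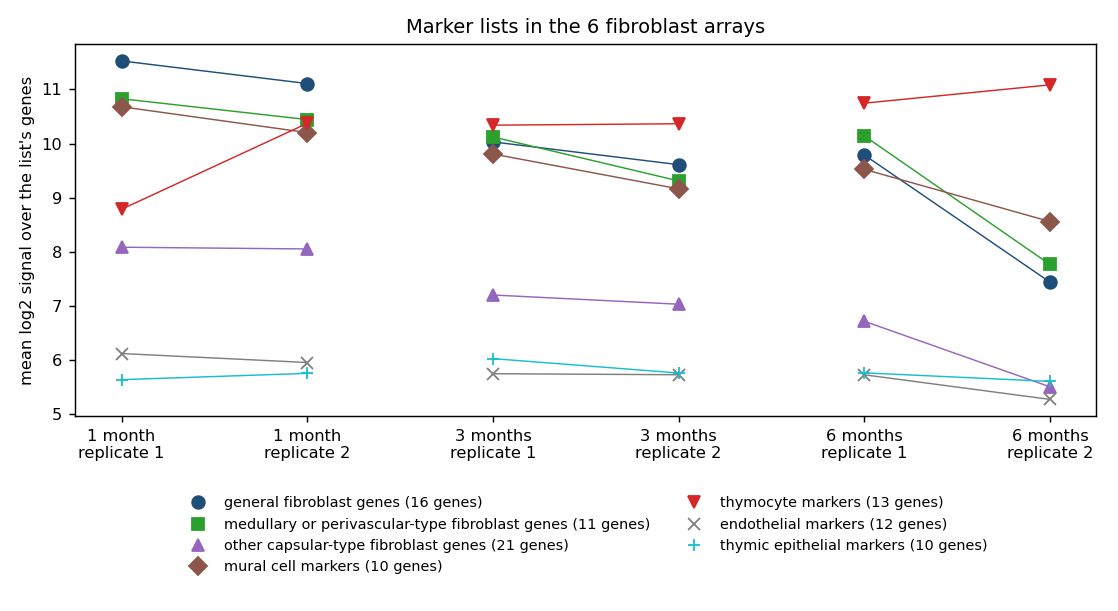
Mean log2 signal (vertical axis) of 7 gene lists in the 6 fibroblast arrays by age in months and replicate (horizontal axis), with a line joining the 2 arrays of each age. The fibroblast lists are lowest in the second 6-month array, where the general fibroblast genes average 7.44, and the thymocyte list is highest there, at 11.08.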

How the data were processed

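RNA of 36 samples was hybridised to Affymetrix mouse 430 2.0 arrays after Trizol extraction and biotin labelling, per the labels' protocols. The authors deposited log2 signals per probe set, normalised with Gene Expression Commons per the series design text, and the submitters' processing notes name GCRMA, with no version given in the sources used here. The log base was read from the values, which were used without further scaling. Of 45101 probe sets, 64 controls, 932 with several symbols and 9160 with none were left out. A model with 1 mean for each of 18 groups and 18 residual degrees of freedom was fitted with limma 3.58.1 (R 4.3.3), with an intensity trend and two-sided tests adjusted over 14495 genes. Each age comparison sets 2 arrays beside 2, and all 18 groups share 1 estimate of spread. The fitting code was tested on simulated data. Beside the 7 genes, the text names the 3 genes most correlated with each over the group means, and up to 3 called genes of each list with the largest change each way. Genes named for their role or for a single array were chosen after their values were seen. The members, the lists and the tests were chosen with earlier results of these data known.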

Additional observations from a re-analysis of the deposited data

Results flagged for a closer look

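The age change of fibroblasts differed from the mean age change of the other 5 populations by a test of that difference in limma. From 1 to 6 months it did so for Pi16 (-3.00), Dpt (-2.96), Scara5 (-2.61), Cd34 (-2.43), Pdgfra (-2.17), Abca8a (-1.49) and Dpp4 (1.62 log2 units). From 1 to 3 months it did so for Dpt (-2.43), Scara5 (-1.41) and Dpp4 (1.22), and from 3 to 6 months for Pi16 (-2.15). Without the second 6-month fibroblast array the differences from 1 to 6 months were -2.13, -1.46, -1.68, -0.68, -0.72, -0.063 and 1.26 in the order above, of which those of Pi16, Scara5 and Dpp4 passed, and the difference of Pi16 from 3 to 6 months was -1.29 and did not pass.

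In 3 of 42 groups of 6 arrays, 1 array stood far from the others by Dixon's gap test. A group here was 1 gene in the 6 arrays of 1 population, with all 3 ages together. Chance marks about 1 in 20 groups of like arrays, and as these groups mix ages that rate may not hold for them. Pdgfra was at 4.76 in the second 1-month Sirpa- DC array, with the next at 5.11. Cd34 was at 6.22 in the first 1-month cTEC array, with the next at 5.23. Pi16 was at 6.43 in the first 1-month Sirpa- DC array, with the next at 5.61.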

How the results depend on the processing

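Of 5222 member values under the alternatives (other probe sets of a gene, filters, scalings, variance models, thresholds, covariates and fits without 1 array), 5038 kept direction and call, 145 lost and 26 gained a call, and 13 reversed. The cause was not tested. Most of these fits left out 1 array, often of a group outside the comparison, so the total does not measure how firm a contrast is. Lost calls were 42 of 357 values from 3 to 6 months in fibroblasts. For the difference in age change from 1 to 6 months they were 45 of 357. With only the compared groups in the fit, limma called 1 member from 1 to 3 months, 0 from 1 to 6 and 0 from 3 to 6 months (5 and 2 at an unadjusted p under 0.05), and 5 for the difference in age change from 1 to 3 months. The thymocyte mean as a covariate gave 1 from 1 to 3 months, and for the difference in age change 0 from 1 to 3 (2 unadjusted) and 2 from 1 to 6 months. The 3′ minus 5′ covariate gave 0 from 1 to 3 months. Dpp4 in the difference from 3 to 6 months was -0.048 with the probe set of largest variance.

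Leaving out each array in turn, members called ranged from 0 to 6 (1 to 3 months), 4 to 7 (1 to 6) and 0 to 7 (3 to 6), and for the difference in age change from 0 to 5, 3 to 7 and 0 to 6. The F-test called 2 to 7, the contrast with Sirpa+ DC 5 to 7, and that at 1 month 6 to 7. From 3 to 6 months Pdgfra ranged from -2.55 to 0.34, Cd34 from -3.17 to 0.32, Dpt from -2.28 to 0.70 and Abca8a from -2.31 to 0.55. Their differences in age change ranged from -2.59 to 0.30, -2.59 to 0.90, -2.01 to 0.97 and -2.15 to 0.72, with Dpt at 0.014 without the first 3-month array. Dpp4 at 1 month ranged from -0.28 to 1.00, and Pi16 at 6 months from -0.81 to 0.93, with -0.019 without the first 6-month mTEChi array. The Dpp4 rise from 3 to 6 months was lost in 27 of 36 such fits.

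With the replicate number as a fixed block, 2 members were called in the difference from 3 to 6 months (Scara5 at -1.20 added) and Cd34 was called from 1 to 3 months. Same-numbered samples deviated together (correlation over 0.1) in 4, 10 and 3 of 15 pairs at 1, 3 and 6 months, with positive medians (0.086, 0.17 and 0.052) and no pair under -0.1. Not every pair passed, so no pairing was assumed, and whether samples share mice is not known.

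Over all genes, 5250 were called from 1 to 6 months in fibroblasts, 3172 with array weights, 0 with only the compared groups in limma (4345 at an unadjusted p under 0.05) and 2147 without the second 6-month array. From 1 to 3 months 2962 were called, 1210 with only the compared groups and 1078 without the first 1-month array. The thymocyte covariate left 1916 (1 to 3) and 2041 (1 to 6), and the 3′ minus 5′ covariate 1864 and 2697. From 3 to 6 months 2341 were called, 0 with only the compared groups (3396 unadjusted) and 752 without the second 6-month array. For the difference in age change 2572, 3823 and 656 were called from 1 to 3, 1 to 6 and 3 to 6 months, against 2241 (1 to 6) and 348 (3 to 6) with array weights, 667 and 340 (1 to 3 and 1 to 6) with the thymocyte covariate, and 1172 and 131 (1 to 6 and 3 to 6) without the second 6-month array. A 2-fold minimum for ages left 1473, 2645 and 1009 in fibroblasts and 1480, 2325 and 400 for the difference, and a 4-fold minimum left 764 of 2661 genes higher or lower in fibroblasts than in the rest. With 2 arrays a group, probe signal near the pooled median limits Pi16 at 6 months.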
